A study of Mus musculus with 4 samples.

Results

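Antisense transcripts are RNAs annotated on the opposite strand of a protein-coding gene, across it or close to its start. Of the 486 transcripts that the deposited table types as antisense, 2 were left out by gene, and the 300 with the highest sum of counts over the 4 libraries were kept, of 37539 transcripts in all. The rule used only their summed counts, so their ranks are a description. Cortex came from 2 APPswe/PS1ΔE9 mice (APP, the libraries APP-3 and APP-4) and 2 wild type mice (WT-1 and WT-2), all male, 12 months old and on a C57BL/6 background. The transgenic mice carry transgenes for a mutant APP and for a PS1 that lacks exon 9, and the wild type controls carry neither. No group had more than 2 mice, which limits every comparison below.

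Some antisense RNAs act on the gene they face, by silencing it, by stabilizing its mRNA or by covering it with transcription, and others start at the same promoter as the coding gene and run away from it. Long antisense RNAs of the brain include Snhg14, a host of small nucleolar RNAs (snoRNAs) whose far end runs across Ube3a, and Dlx6os1, also called Evf2, made in the developing forebrain where Dlx5 and Dlx6 set up inhibitory neurons. Snhg14 is imprinted and is transcribed from the paternal chromosome, and Ube3a, the ubiquitin ligase lost in Angelman syndrome, is in neurons read from the maternal chromosome.

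Library totals were 28525117 to 43881196 counts, and the 300 transcripts made up 0.553% to 0.617% of them. By identifier, 296 were placed in GENCODE M21 (mouse build GRCm38) and 4 were not, and the 296 belonged to 234 genes, 39 of them with more than 1 transcript here. The label held for most of them, since M21 still types 268 as antisense, although 11 now lie in genes called protein-coding, such as the transcript of Hnrnpu, an RNA-binding protein of the nucleus. They spanned 298 to 6861 bases, with a median of 1570 bases and 3 exons, and lay on 20 chromosomes.

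Abundance was very uneven. The mean of the 4 libraries in CPM (counts scaled to a common library size by the TMM method) ran from 962 CPM to 0.417 CPM with a median of 1.31 CPM, and 38 transcripts reached 10 CPM while 177 reached 1 CPM. The first 10 held 74.3% of all member counts, and 8 of these 10 were transcripts of Snhg14. At the edge, the last transcript kept, of Gm17116, had a sum of 60 counts, as had the first one left out, of 9130221H12Rik, and the tie was settled by identifier.

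**Figure D1:**
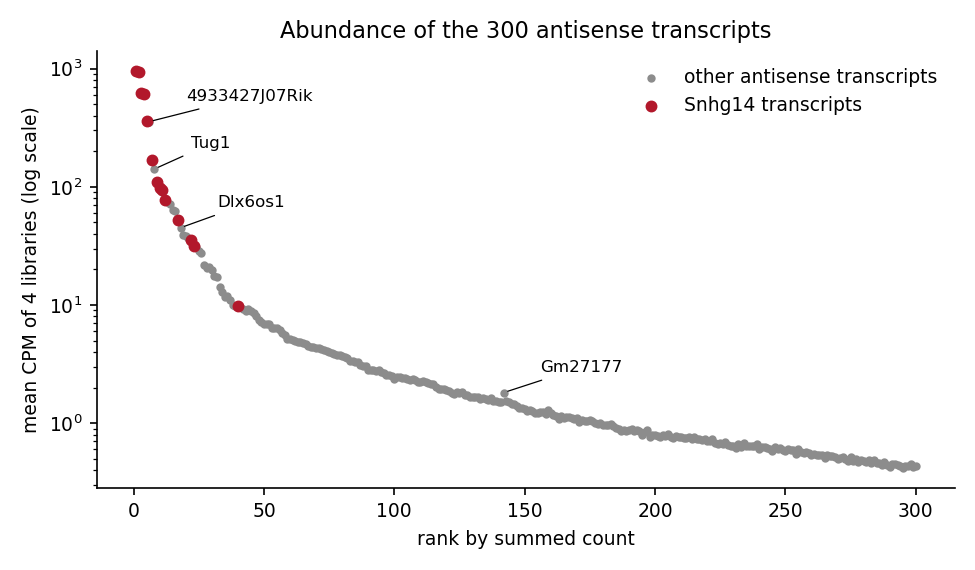
Mean CPM of the 4 libraries (log scale) against rank by summed count for the 300 antisense transcripts, with the 14 transcripts of Snhg14 in red and all others in grey. Snhg14 fills 8 of the first 10 ranks, and the median transcript stands at 1.31 CPM.

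Snhg14 alone carried 71.0% of the member counts, in 14 transcripts on chromosome 7. Its summed counts were 108932 (APP-3), 134358 (APP-4), 194846 (WT-1) and 145408 (WT-2), or 69.1%, 71.9%, 71.9% and 70.4% of member counts in the same order. The share was lowest in APP-3 and equal in APP-4 and WT-1, so the groups overlapped. Several of its exons are near copies of each other, shown here because reads from such exons cannot be assigned to a single transcript with certainty. The first set holds exons 2, 4 and 6 of the most abundant member, ENSMUST00000188262 (8 exons at chr7:59445703-59453239, minus strand). The second holds exons 2, 3 and 4 of the fourth most abundant, ENSMUST00000185815 (5 exons at chr7:59676393-59696230, minus strand). The sequences come from GENCODE M21, capitals mark bases that differ from the first copy of the set, and the exons lie at chr7:59451256-59451378, chr7:59449384-59449506, chr7:59447515-59447637, chr7:59683936-59684082, chr7:59681404-59681550 and chr7:59678859-59679005 in the order given.
Snhg14 exon A1: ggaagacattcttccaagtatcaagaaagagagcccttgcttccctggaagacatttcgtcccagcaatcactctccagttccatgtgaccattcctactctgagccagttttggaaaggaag
Snhg14 exon A2: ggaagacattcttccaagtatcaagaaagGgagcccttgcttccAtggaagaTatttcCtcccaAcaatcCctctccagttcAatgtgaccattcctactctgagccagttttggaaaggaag
Snhg14 exon A3: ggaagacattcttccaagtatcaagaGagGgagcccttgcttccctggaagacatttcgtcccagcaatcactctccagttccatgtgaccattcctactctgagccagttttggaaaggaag
Snhg14 exon B1: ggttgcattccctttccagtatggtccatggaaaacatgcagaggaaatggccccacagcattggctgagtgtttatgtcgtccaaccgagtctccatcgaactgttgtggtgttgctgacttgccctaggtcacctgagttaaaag
Snhg14 exon B2: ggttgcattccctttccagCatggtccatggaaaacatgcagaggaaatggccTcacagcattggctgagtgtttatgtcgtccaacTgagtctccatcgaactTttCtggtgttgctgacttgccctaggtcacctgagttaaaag
Snhg14 exon B3: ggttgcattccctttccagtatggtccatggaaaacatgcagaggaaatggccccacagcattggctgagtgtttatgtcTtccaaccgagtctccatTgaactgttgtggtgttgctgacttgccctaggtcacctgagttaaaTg

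Over their 123 bases, copies A2 and A3 differed from A1 at 7 and 2 bases, an identity of 94.3% and 98.4%. Over their 147 bases, copies B2 and B3 differed from B1 at 5 and 3 bases, an identity of 96.6% and 98.0%. Of the 50-base words of ENSMUST00000185815, 79.6% also occurred in another Snhg14 transcript of the table, against 38.6% for ENSMUST00000188262. The split of counts between Snhg14 transcripts is therefore uncertain, and their sum is less so.

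Per kb of transcript, the Snhg14 level was far from even along the unit, which is read from right to left on the chromosome. The 3 transcripts at the upstream end, starting within 2.30 kb of each other, had mean levels of 53.0, 42.8 and 69.1 CPM per kb. The 7 transcripts starting 71.1 to 297 kb further on, in the stretch with snoRNA genes of 92 to 94 bases, ranged from 21.6 to 903 CPM per kb. The 2 in the stretch with snoRNA genes of 79 bases had 1400 and 399 CPM per kb, the former the highest level per kb among all members. At the far end the levels were 29.3 and 10.03 CPM per kb, and there ENSMUST00000190666 (3 exons, chr7:59307924-59324149) has 48.6% of its bases opposite exons of Ube3a.

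**Figure D2:**
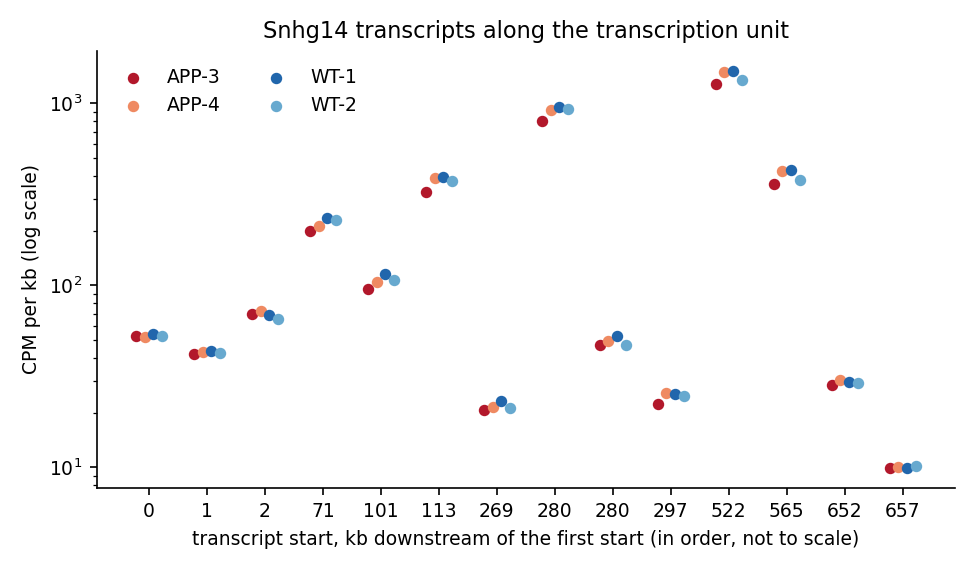
CPM per kb (log scale) of the 14 Snhg14 transcripts in each of the 4 libraries, ordered by the distance of their start from the first start in kb, with red and orange for APP and dark and light blue for WT. The 4 libraries lie close together at each transcript, while the transcripts range from 10.03 to 1400 CPM per kb.

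None of the 14 Snhg14 transcripts passed the test of APP against WT over the 4 libraries. Their log2 fold changes, given throughout as APP over WT, ran from -0.17 to 0.08, and 12 of 14 were below 0. The lowest adjusted p (FDR) was 0.475 by the quasi-likelihood test of edgeR, adjusted after Benjamini and Hochberg over all 37539 transcripts. For ENSMUST00000188262 the counts were 25118 and 31653 in APP against 45804 and 32583 in WT, or 944 ± 101 CPM against 980 ± 84.1 CPM (SD, n = 2 each). Groups did not overlap for 4 of the 14, with 3 lower and 1 higher in APP, a smaller share than the 38.5% of all transcripts. The 3 lower ones all came from the stretch with snoRNA genes of 92 to 94 bases, which holds more of the 14 than any other stretch. They share 53.7%, 82.2% and 79.6% of their 50-base words with other Snhg14 transcripts, and the higher one shares 93.6%. The 4 are thus not separate observations, and no effect of position is read from them. Without APP-4, 5 of the 14 had an FDR under 0.05 (lowest 7.55e-05), with log2 fold changes between -0.25 and -0.17 that missed the fold cut-off of 1.5, while without any other single library none had. Summed over its transcripts, Snhg14 stood at 4046 ± 412 CPM in APP and 4268 ± 235 CPM in WT (log2 fold change -0.08, SE 0.07, FDR 0.755 over 18386 gene sums). Ube3a, the coding gene at the far end, had 6690, 6676, 9977 and 7886 counts in APP-3, APP-4, WT-1 and WT-2, a log2 fold change of -0.01 (SE 0.07). Snrpn, which shares the upstream end of the same imprinted unit, was lower in both APP libraries, with a log2 fold change of -0.10 (SE 0.07) and an FDR of 0.598.

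Outside Snhg14, the most abundant member was 4933427J07Rik (chr2:128955671-128957861, 2 exons), with 9995, 11015, 16320 and 12495 counts in APP-3, APP-4, WT-1 and WT-2. It stood at 350 ± 4.35 CPM in APP and 362 ± 12.3 CPM in WT (SD, n = 2 each), and 31.5% of its 50-base words also occur in transcripts of 5 other genes. Tug1, a long RNA with broad expression that starts near Morc2a, had 4096 and 4410 counts in APP and 6161 and 5037 in WT. Its CPM was 142 ± 0.577 in APP and 141 ± 1.75 in WT, with overlapping groups. At rank 13 came Gm29084, 1 exon inside an intron of Pard3b at chr1:62534491-62535942, with 2328, 2145, 3031 and 2819 counts. It shares 91.0% of its 50-base words with transcripts of 5 other genes, so its counts cannot be credited to that locus alone.

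Rapgef4os1, inside Rapgef4, a signalling gene for cyclic AMP, and Macrod2os1, inside Macrod2, lie in introns and were close in level, at 39.0 and 38.1 CPM. Rapgef4os1 had 1146, 1200, 1659 and 1422 counts and Macrod2os1 1177, 1129, 1585 and 1397 counts in APP-3, APP-4, WT-1 and WT-2, with overlapping groups in both. Per kb the order changed, to 61.2 CPM per kb for Rapgef4os1 and 12.2 CPM per kb for Macrod2os1. Among the 38 members at 10 CPM or more, log2 fold changes ran only from -0.60 to 0.09.

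By position, 154 members had exons opposite exons of a protein-coding gene, 51 lay opposite introns alone, and 91 overlapped no coding gene on the other strand. Median levels were 0.768, 1.15 and 1.66 CPM per kb in these classes, the last being 1.40 CPM per kb without Snhg14. Median log2 fold changes were -0.01, 0.05 and -0.02. A start within 1000 bases of a coding start on the other strand was found for 153 of 296 members (51.7%), next to 49.4% of the 180 placed antisense transcripts that were less abundant. In 88 of the 153 the pair ran away from each other without overlap, and in 65 their first stretches overlapped. Their median distance from start to start was 214 bases.

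The stretch of DNA between 2 such starts is short enough to print. The examples are the promoter of BC052040 facing Gm13977, an abundant member with 586, 710, 896 and 717 counts in APP-3, APP-4, WT-1 and WT-2 and chosen after its values were seen, that of Gjd2, a gap junction gene of neurons facing A530058N18Rik, and that of Ptgs2, the activity-induced cyclooxygenase facing Ptgs2os. The 2 latter pairs are shown because the results below turn on them. Each holds the 250 bases before the RefSeq start of the coding gene in GRCm38.p6, on the coding strand, at chr2:115581466-115581715 (plus strand), chr2:114013620-114013869 (minus strand) and chr1:150099781-150100030 (plus strand). Capitals mark the bases between the coding start and the antisense start, and the antisense RNA reads away to the left.
BC052040 promoter: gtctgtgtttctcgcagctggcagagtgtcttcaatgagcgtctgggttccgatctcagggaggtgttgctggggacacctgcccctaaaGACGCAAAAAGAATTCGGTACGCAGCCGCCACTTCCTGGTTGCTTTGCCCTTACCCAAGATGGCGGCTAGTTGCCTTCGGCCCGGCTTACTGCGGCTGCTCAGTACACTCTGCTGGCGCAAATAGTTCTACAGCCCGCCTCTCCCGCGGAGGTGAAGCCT
Gjd2 promoter: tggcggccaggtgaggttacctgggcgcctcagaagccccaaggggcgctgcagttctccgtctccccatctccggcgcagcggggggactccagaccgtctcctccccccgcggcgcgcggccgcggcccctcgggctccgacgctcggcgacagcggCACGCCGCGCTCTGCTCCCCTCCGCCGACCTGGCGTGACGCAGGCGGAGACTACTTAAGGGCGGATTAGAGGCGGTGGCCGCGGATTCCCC
Ptgs2 promoter: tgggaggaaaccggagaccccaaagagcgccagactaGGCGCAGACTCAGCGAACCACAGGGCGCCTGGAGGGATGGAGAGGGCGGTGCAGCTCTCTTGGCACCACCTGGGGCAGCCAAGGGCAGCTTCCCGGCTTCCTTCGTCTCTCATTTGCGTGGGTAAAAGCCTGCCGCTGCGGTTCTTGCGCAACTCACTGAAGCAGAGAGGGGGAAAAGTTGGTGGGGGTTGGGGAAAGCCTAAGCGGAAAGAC

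Between the starts lay 160, 91 and 213 bases, with 12, 12 and 11 CG dinucleotides. Of the 130 coding genes with a member start within 1000 bases, 104 matched a RefSeq promoter of 250 bases before to 50 after the start. At least 10 CG dinucleotides were found in 76.9% of these promoters and in 77.8% of the promoters of 11728 counted coding genes. The median was 20 CG dinucleotides and 60.7% G and C in both sets.

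To compare the genotypes, every transcript was tested for APP against WT, and a call needed a fold change of 1.5 or more with FDR below 0.05. The test called 1 of the 300 members, higher in APP, and none lower. Over all 37539 transcripts it called 0.807%, and 0.749% higher in APP, so the members' share was near the background. The median log2 fold change was -0.003 over the members and 0.007 over all transcripts, with quartiles of -0.19 and 0.17 and of -0.15 and 0.21. Both APP libraries lay above both WT libraries for 48 members and below for 63. Groups that did not overlap thus made up 37.0% of members, and 38.5% of all transcripts (19.9% higher and 18.6% lower). An unadjusted p under 0.05 was seen for 26 members (10 higher, 16 lower), 8.67% of them and 9.18% of all transcripts. For a single value, the exact permutation test over 2 mice against 2 cannot give a p under 1 in 3.

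**Figure D3:**
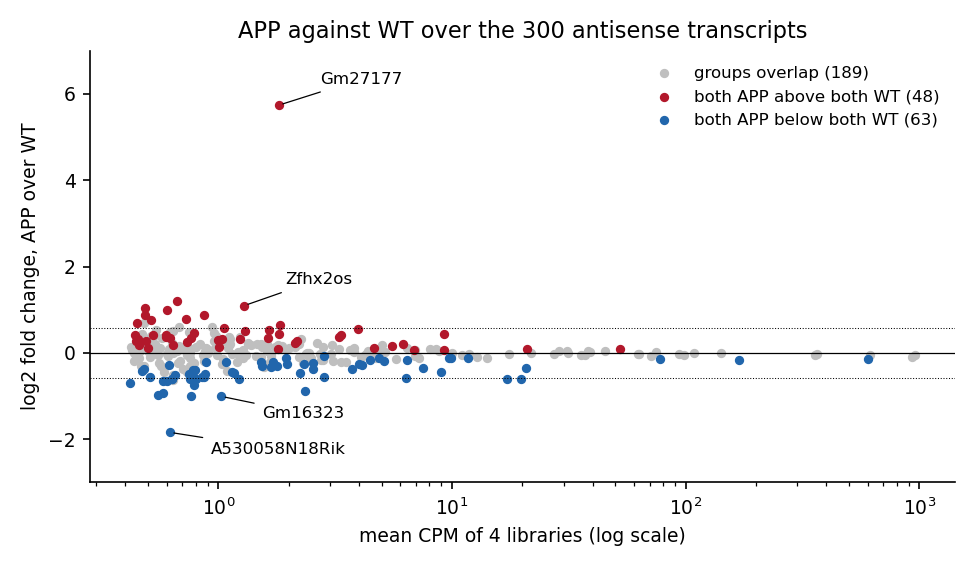
Log2 fold change of APP over WT against mean CPM (log scale) for the 300 antisense transcripts, with dotted lines at a fold change of 1.5, red where both APP libraries are above both WT libraries (48), blue where both are below (63) and grey where groups overlap (189). Points close in on 0 as abundance rises, and Gm27177 stands alone at 5.74.

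The called member was Gm27177 (ENSMUST00000183339, 3 exons at chr14:69582164-69640274, minus strand), with 200 and 6 counts in APP (APP-3 and APP-4) and 5 and 0 in WT. It was high in APP-3 only, and APP-4 lay next to WT-1. Its CPM was 3.57 ± 4.78 in APP and 0.0567 ± 0.0802 in WT (SD, n = 2 each), and its log2 fold change was 5.74 (SE 1.22, FDR 0.0312). Without APP-3 the log2 fold change was 1.59 with an FDR of 0.646, so the call rests on that library, and summed by gene its FDR was 0.166. The study picked this transcript from these same libraries, so its direction is not independent evidence.

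Gm27177 has 57.7% of its bases opposite exons of Entpd4b, one of a pair of near-identical genes for nucleotide-splitting enzymes, 379 of them opposite coding sequence. The longest coding stretch, the 217 bases at chr14:69583770-69583986 read on the minus strand, is printed from GENCODE M21 because reads from either strand of this locus, and from a second antisense gene, can carry it. All of it is in capitals, being opposite coding sequence.
Gm27177: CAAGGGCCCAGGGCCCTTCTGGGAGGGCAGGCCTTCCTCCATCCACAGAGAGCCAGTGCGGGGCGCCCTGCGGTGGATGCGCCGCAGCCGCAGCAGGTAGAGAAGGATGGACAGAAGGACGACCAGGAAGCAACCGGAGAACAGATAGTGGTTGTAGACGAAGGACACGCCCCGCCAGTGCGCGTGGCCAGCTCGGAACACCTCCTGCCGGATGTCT

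The same 217 bases occur unchanged in a transcript of Gm16867, with which Gm27177 shares an unbroken run of 2846 of its 2946 bases. Gm16867 had 95, 0, 10 and 1 counts in APP-3, APP-4, WT-1 and WT-2, again high in APP-3. Entpd4 had 2394, 1622, 2610 and 2055 counts and Entpd4b 268, 197, 279 and 207, which is 67.4 ± 21.3 CPM in APP and 58.7 ± 1.0 CPM in WT for Entpd4 (SD, n = 2 each). The wide APP spread of Entpd4 came with APP-3 as its high library. Whether the counting used the strand of the reads is not given in the sources used here, and without strand the reads of Gm27177 and Entpd4b cannot be told apart where their exons overlap.

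Among members that were not called but did not overlap between groups, the 5 with the highest log2 fold change were all under 1.3 CPM. Gm16168 had 21 and 35 counts in APP and 16 and 16 in WT (log2 fold change 1.20, SE 0.39). Zfhx2os (ENSMUST00000183750, chr14:55053947-55075873), which runs opposite Zfhx2, a homeobox gene of neurons, had 51 and 54 counts in APP and 35 and 30 in WT (log2 fold change 1.09, SE 0.27, FDR 0.0784). Its libraries were tight within each group, at 1.75 ± 0.0278 CPM and 0.821 ± 0.0376 CPM. Summed over its 2 transcripts, Zfhx2os had 114 and 134 counts in APP and 115 and 106 in WT. That gene sum had a smaller log2 fold change of 0.56 (SE 0.18, FDR 0.23).

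Zfhx2os shares 62.7% of its 50-base words with Gm20687, also on the study's list, which had 26 and 27 counts in APP and 23 and 20 in WT, and 74.4% of its bases lie opposite Zfhx2 exons. Zfhx2 itself had 559, 801, 1062 and 761 counts in APP-3, APP-4, WT-1 and WT-2, with overlapping groups and a log2 fold change of -0.02 (SE 0.13). The other 3 of the 5 were Chrna1os, Gm15624 and Gm15445, with 12 to 26 counts in each library and log2 fold changes of 1.04, 0.99 and 0.88.

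The lowest log2 fold change was that of A530058N18Rik (ENSMUST00000128469, 4 exons at chr2:114013711-114031583), which starts beside Gjd2. Its counts were 5 and 11 in APP and 30 and 45 in WT (log2 fold change -1.84, SE 0.47, FDR 0.0966). A second transcript of the gene, ENSMUST00000135729, starts 1 base away and had 26 and 30 counts in APP and 33 and 54 in WT, with overlapping groups. Summed by gene, the counts were 67, 114, 120 and 152 in APP-3, APP-4, WT-1 and WT-2, with a log2 fold change of -0.22 (SE 0.28), and the groups overlapped. Gjd2 had 105 and 112 counts in APP and 185 and 149 in WT (log2 fold change -0.22, SE 0.16).

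Gm16323 (chr2:30413716-30415338), with 73.9% of its bases opposite exons of Crat, an enzyme that moves acetyl groups onto carnitine, had 14 and 27 counts in APP and 52 and 56 in WT. Its log2 fold change was -1.01 (SE 0.34, FDR 0.270), while that of Crat was -0.07 (SE 0.09). The other low ones were Gm3892, Gm13601 and F630028O10Rik, with 6 to 56 counts in each library and log2 fold changes of -0.99, -0.98 and -0.93. For Gm3892, 97.6% of the 50-base words are shared with other genes.

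Some more abundant members also lay lower in both APP libraries, and 3 are named here after their values were seen. The transcript ENSMUST00000185204 of 9130024F11Rik had 164 and 141 counts in APP and 339 and 268 in WT (log2 fold change -0.58, SE 0.16, FDR 0.130). A830036E02Rik runs opposite Krt12, a keratin, and its most abundant transcript had 578 and 347 counts in APP and 1040 and 839 in WT (log2 fold change -0.60, SE 0.18, FDR 0.171). Summed over its transcripts, A830036E02Rik stood at 41.7 CPM in APP-3 and 22.05 CPM in APP-4. WT-1 and WT-2 were at 47.4 CPM and 49.4 CPM, so most of the difference lay in APP-4.

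Krt12 had 141, 104, 297 and 237 counts in APP-3, APP-4, WT-1 and WT-2, a log2 fold change of -0.71 (SE 0.19, FDR 0.157). Its antisense gene and Krt12 were thus both lower in the APP libraries. The most abundant A830036E02Rik transcript has 14.3% of its bases opposite Krt12 exons. In order of abundance, the others here have 29.2%, 48.9% and 1.45%. Reads from these stretches cannot be told apart if the counting did not use the strand. A830082K12Rik, near Nr2f1, a factor of cortical area identity, had 609, 652, 1064 and 858 counts over its transcripts, a log2 fold change of -0.20 (SE 0.08, FDR 0.326). None of these passed the test.

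Markers of cortical excitatory neurons were also lower in both APP libraries when summed. The members above had been picked after their lower values were seen, so the shared direction is a description. The 4 genes summed (Slc17a7, Neurod6, Tbr1 and Cux2) were all counted, all had a log2 fold change below 0, none was called, and their summed level was 439 to 476.5 CPM in APP and 541 to 546.5 CPM in WT. Microglial markers went the other way, with 5 of 8 called and a summed level of 232 to 278 CPM in APP and 141 to 142 CPM in WT. Oligodendrocyte markers (1 of 5 called) stood at 1267 to 1435 CPM in APP and 927 to 1043 CPM in WT, and astrocyte markers (2 of 5 called) at 4046 to 4361 CPM and 3239 to 3594 CPM. The part of these shifts in the antisense values was not tested, and fewer cells of a type and less RNA per cell cannot be told apart in bulk tissue. These excitatory markers summed to at least 439 CPM in every library, which cannot exclude other tissue in the samples. Thalamic markers (4 of 4 counted, none called) stood at 219 to 245 CPM in APP and 228 to 240 CPM in WT. Of these 4, 3 were higher in both APP libraries. Hypothalamic markers (4 of 5 counted, 2 called) were at 3.62 to 5.59 CPM in APP and 0.169 to 0.250 CPM in WT.

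**Figure D4:**
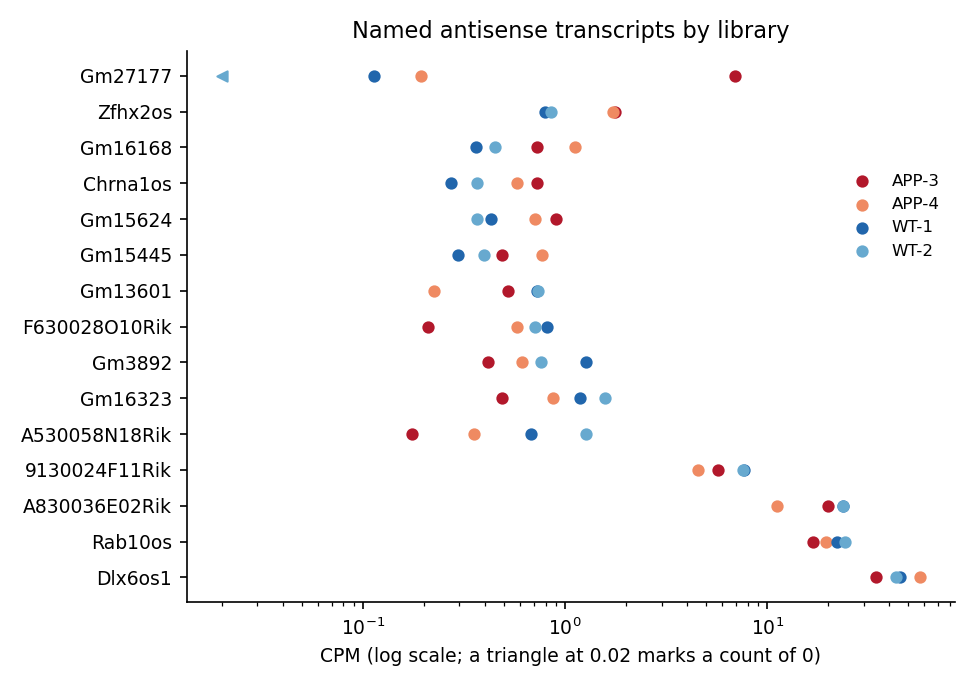
CPM (log scale) of 15 named antisense transcripts in each library, with red and orange points for APP-3 and APP-4 and dark and light blue for WT-1 and WT-2, and a triangle for a count of 0. Gm27177 is high in APP-3 alone, while Dlx6os1 has APP-3 and APP-4 on opposite sides of the WT libraries.

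The APP libraries were less alike than the WT libraries. Among the 177 members at 1 CPM or more, 16 differed by at least 1.5-fold between APP-3 and APP-4, and 3 between WT-1 and WT-2 (on CPM plus 0.5). The median SD of log2 CPM over all members was 0.15 in APP and 0.10 in WT. The APP libraries also held fewer counts, 28525117 and 31392983 against 43881196 and 35623228 in WT. The part of depth in this spread was not tested, and the same shares over all transcripts are not given here. Dlx6os1 was among the 16. Its main transcript (3 exons at chr6:6820543-6871592) had 993, 1774, 2004 and 1529 counts in APP-3, APP-4, WT-1 and WT-2, or 34.5 CPM, 56.9 CPM, 45.5 CPM and 43.2 CPM.

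APP-3 was lowest and APP-4 highest, so the groups overlapped and the log2 fold change was 0.05 (SE 0.15). Markers of the striatum, a region below the cortex, followed the same order within APP, with a summed level of 85.0 CPM in APP-3, 196 CPM in APP-4, 127 CPM in WT-1 and 135 CPM in WT-2. So did the summed interneuron markers, at 451, 551, 547 and 505 CPM. Most of that sum was Gad1 (234, 299, 301 and 280 CPM) and Gad2 (130, 174, 141 and 125 CPM), whose groups overlapped. Of the 5 interneuron markers, 3 were lower in both APP libraries, so the order of the sum does not stand for each of them. The part of the striatal and interneuron markers in the Dlx6os1 level was not tested.

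For antisense genes whose symbol names the sense gene, both were measured in the same libraries. Such a symbol was carried by 47 members of 38 genes, and the sense gene was counted for 44 of them, which gave 35 pairs with 34 sense genes, since Dlx6os1 and Dlx6os2 both face Dlx6. Per kb, the antisense was below the sense gene in 29 pairs and above it in 6, with a median of 18.6% of the sense level. Set against only the most abundant coding transcript of the sense gene, the antisense was below in 28 pairs and above in 7, with a median of 22.6%, and the pair that changed sides was Macrod2os1, from 43.0% to 158%. H3f3aos, beside the gene of a replacement histone, was lowest at 0.943% of H3f3a, and Zeb2os stood at 2.85% of Zeb2, a neuronal transcription factor.

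The 6 above their sense gene were Prox2os, Dlx6os1, Dlx1as, Zfhx2os, Fbxl12os and Brip1os, and Prox2os reached 1480% of Prox2, a homeobox gene with only 9 to 22 counts per library. Dlx6os1 stood at 276% of Dlx6 (689% of its most abundant coding transcript), which had 127, 170, 203 and 155 counts in APP-3, APP-4, WT-1 and WT-2, and Dlx1as at 221% of Dlx1. Dlx1as has 51.8% of its bases opposite Dlx1 exons. Across the 35 pairs the log2 levels per kb of antisense and sense had a Pearson r of 0.155, a description over pairs that share libraries and depth.

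None of the 34 sense genes was called, by edgeR's quasi-likelihood test, against 0.881% of all 18386 gene sums (0.843% higher in APP). DESeq2, the likelihood ratio test and the exact test likewise called 0. By the quasi-likelihood test 8 of the 34 had an unadjusted p under 0.05. The share of all gene sums under that p is not given here, so the 8 cannot be set against a background. Groups did not overlap for 16 of the 34 (4 higher and 12 lower in APP), next to 42.7% of all gene sums (21.3% higher and 21.4% lower). Their median log2 fold change was -0.03. The log2 fold changes of antisense and sense genes had the same sign in 20 of 35 pairs, with a Pearson r of 0.010 over pairs that share the 4 libraries. By position, 155 coding genes opposite a member were counted, none was called, and their median log2 fold change was -0.01. The 1 with an FDR below 0.05 was Cobl, an actin-binding gene, with 1649 and 2135 counts in APP and 3988 and 3142 in WT (log2 fold change -0.51, SE 0.09, FDR 0.0394), which missed the fold cut-off of 1.5. The antisense Gm12002 in its intron had 379, 320, 492 and 446 counts in APP-3, APP-4, WT-1 and WT-2, with overlapping groups and a log2 fold change of -0.02 (SE 0.14).

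The log2 ratio of antisense over sense level per kb was then taken in each library. Its median change from WT to APP over the 35 pairs was -0.004, and it was higher in both APP libraries for 7 pairs, lower in both for 7 and overlapping for 21. No such share was taken over ratios of other genes, and among levels of single genes 42.7% of all gene sums did not overlap. A ratio without overlap is thus no result by itself. The widest change was that of Chrna1os over Chrna1, a subunit of the muscle acetylcholine receptor, at -0.56 and -0.58 in APP and -1.90 and -1.61 in WT. It rested on 12 to 21 antisense counts per library.

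For Ptgs2os over Ptgs2, a pair named after its values were seen, the log2 ratio was -4.37 and -4.03 in APP and -4.59 and -5.11 in WT. Ptgs2os had 23, 32, 40 and 28 counts with overlapping groups, while Ptgs2 had 721 and 791 counts in APP and 1458 and 1469 in WT (log2 fold change -0.56, SE 0.11, FDR 0.0535). For Emx2os over Emx2, a factor of cortical patterning, it was -0.86 and -1.40 in APP and -1.43 and -1.90 in WT. Emx2os had 73, 71, 130 and 79 counts, and Emx2 had 77 and 109 in APP and 203 and 171 in WT (log2 fold change -0.61, SE 0.19, FDR 0.215). In both pairs the sense gene was lower in both APP libraries while the antisense groups overlapped.

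Rab10os over Rab10, a small GTPase of vesicle traffic, went the other way, with -1.94 and -1.52 in APP and -1.48 and -1.40 in WT. Its 3 transcripts together had 690 and 889 counts in APP and 1344 and 1173 in WT, while Rab10 had 3561, 3536, 5050 and 4143 counts in APP-3, APP-4, WT-1 and WT-2 and a log2 fold change of 0.03 (SE 0.07). Of the 3, the transcript without overlap between groups was ENSMUST00000178074, with 487 and 606 counts in APP and 982 and 859 in WT (log2 fold change -0.35, SE 0.10, FDR 0.170). With 2 mice against 2 the exact permutation p of each of these 4 ratios was 1 in 3, the smallest it can be.

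**Figure D5:**
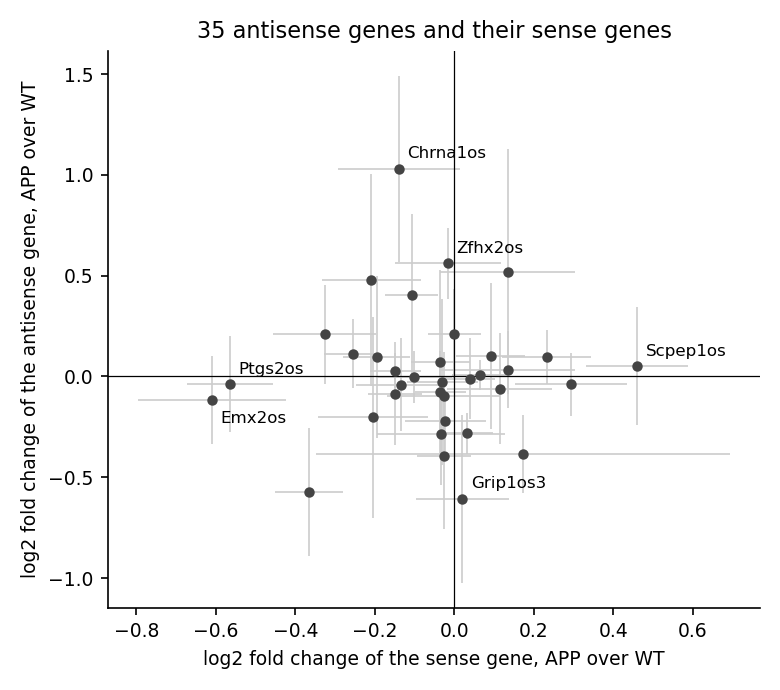
Log2 fold change (APP over WT) of the sense gene on the horizontal axis against that of its antisense gene on the vertical axis for 35 pairs, with bars of 1 SE. The points show no common slope (Pearson r 0.010), with Ptgs2os and Emx2os at the left near a vertical value of 0 and Chrna1os at the top.

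Levels were also set beside the overlap of the strands. Among members with a counted coding gene opposite, the 19 with at least 50% of their bases opposite its exons had a median of 14% of that gene's level per kb, from 0.163% to 1480%. The 80 members with 10% to 50% of their bases there had a median of 10.2% (0.164% to 3920%), and the 37 with a smaller share 18.8% (0.77% to 1030%). For the 45 opposite introns alone the median was 21.7%. Of all members, 194 shared no 50-base word with a transcript of another gene and 12 shared more than 20% of theirs.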

How the data were processed

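The authors depleted ribosomal RNA, made strand-specific libraries, sequenced paired reads, and aligned them with FANSe2 to the mouse RNA set of Ensembl. They kept transcripts with at least 10 reads and deposited unnormalized counts per transcript, which are used here. The Ensembl release and the use of strand in counting are not given in the sources used here. The submitters' processing notes list hg19, CASAVA 1.8 and edgeR. The table also holds the authors' log2 fold change, mean log2 CPM, p-value and FDR, and 4 columns of log2 CPM per library, none of which was used.

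The 4 libraries held 28525117 to 43881196 counts. Column numbers identify each WT sample, and APP columns were assigned to their group only. By the methods each group is 2 mice, and the p-values measure the spread between these samples. Counts were fitted with edgeR 4.0.16 (R 4.3.3), by the quasi-likelihood test with TMM scaling over all 37539 transcripts, or over 18386 gene sums by GENCODE M21 (98.2% of transcripts matched). SEs were derived from the fold change and the F statistic. Ratios per kb add the CPM per kb of a gene's transcripts. Positions, sequences and shared 50-base words came from GENCODE M21 and promoters from RefSeq (GRCm38.p6). Simulated counts were used to test the fits. Alternatives were edgeR's exact and likelihood ratio tests, DESeq2 1.42.0, no TMM, 10 counts in every library, gene sums, a fold change of 2, other member lists and leaving out each library.

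Members and lists were chosen with earlier results of these data known. The deposited symbol is blank for 265 members, whose names come from GENCODE M21, as do those of the 2 left out. Named members are the 10 most abundant, the called one, the 5 highest and 5 lowest among those not overlapping, the 25 most abundant whose symbol names a counted sense gene, the edge of the list, and a fixed list of which 5 genes were members. Other members that appear by name were picked after their values were seen. Some genes are not reported here, and a marker list was summed without one of them.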

Additional observations from a re-analysis of the deposited data

How the results depend on the processing

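The count of 1 called member became 3 by edgeR's exact test and 3 by its likelihood ratio test (Gm27177, Zfhx2os and A530058N18Rik), 0 by DESeq2, 0 with at least 10 counts in every library, 0 over gene sums and 0 among the 100 most abundant. It stayed at 1 with library totals, a fold change of at least 2, all 484 antisense transcripts, and, chosen after seeing the data, the deposited symbols alone. Leaving out each library gave 3 to 8 called members, with 8 without APP-3, 6 without APP-4, 4 without WT-1 and 3 without WT-2, and the lone library left was assumed to vary like the others. For Gm27177, the FDR was 0.646 without APP-3 and 0.707 by DESeq2. The count of called sense genes stayed at 0 under the alternatives that kept all 4 libraries, and moved on leaving out APP-4 or WT-1. The median log2 fold change of members and the median change of the log2 ratio moved by less than the spread between replicates under every alternative run. Of the values of named members under alternatives, 469 kept their side of the threshold, 10 came to pass it, 2 no longer did, and 0 reversed among called ones. The 4 libraries and the 60 to 135158 counts per member limit what could be called. No paired analysis was run, because neither the labels nor the methods pair an APP mouse with a WT mouse. The APP columns also carry numbers that no label of the APP samples has.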
